A study of Mus musculus with 6 samples.

Results

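Disease-associated microglia are brain and spinal cord macrophages that, near dying neurons, plaques or damaged myelin, lower their resting genes and raise a shared set of genes for lipid handling, lysosomal digestion and adhesion. The genes described here are 10 of that set, of 19449 genes in a table of single spinal cord cells and of 55351 genes in a table of bulk microglial RNA. They are *Trem2*, *Tyrobp*, *Apoe*, *Lpl*, *Fabp5*, *Gpnmb*, *Cst7*, *Lgals3*, *Spp1* and *Itgax*. All 10 were present in both tables.

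The single cells were CD45+ cells from the spinal cord of mice with experimental autoimmune encephalomyelitis (EAE), a model of multiple sclerosis started here by adoptive transfer of myelin-reactive CD4+ T cells into C57BL/6 recipients. Recipients were young (8 to 12 weeks) or middle-aged (40 to 44 weeks), cells were taken on day 6 or day 10 posttransfer, and 1 library of 4 pooled cords was made for each age and day, so differences between mice within a group could not be seen. The bulk libraries held microglia of naive mice without treatment, 1 library for each age. All 6 samples came from the spinal cord, and the single-cell samples shared the transfer, so no library of single cells came from mice without EAE.

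In this family TREM2 is a surface receptor for lipids and lipoproteins, and TYROBP (DAP12) is the adaptor through which it signals. APOE carries lipids between cells, LPL breaks down triglycerides of lipoproteins, and FABP5 carries fatty acids inside the cell. GPNMB is a glycoprotein of lysosomes and the cell surface, cystatin F (*Cst7*) inhibits cathepsins, and galectin-3 (*Lgals3*) binds sugars of glycoproteins, also on damaged lysosomes. Osteopontin (*Spp1*) is a secreted ligand of integrins, and *Itgax* encodes the integrin CD11c. Monocyte-derived macrophages that enter an inflamed cord can use most of these genes too, which is why the levels in both kinds of cells are given.

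The deposited table numbered 16 clusters of cells without cell types. The libraries held 8315 to 10026 cells, with a median of 4704.5 to 6196 unique molecular identifiers (UMIs, 1 per captured transcript) per cell, and 13 to 36 cell barcodes were shared by a pair of libraries. Clusters 10 and 8 (1344 and 2057 cells) were taken as microglia and clusters 1 and 5 (9645 and 2211 cells) as macrophages. The summed level of 8 microglial markers in UMIs per 1000000 UMIs of the cluster (CPM) was 8265, 5553, 5805 and 5699.9 in cluster 10, and 5596, 3695, 2534 and 3048 in cluster 8, in young and middle-aged mice of day 6 and then young and middle-aged mice of day 10, the order kept throughout. In clusters 1 and 5 it stayed between 130.4 and 499. Sums of 8 monocyte and macrophage markers reached 9162 to 16415 in cluster 1 and 7487 to 13701 in cluster 5. Cluster 8 stood between the types, with 938, 1619, 3762 and 3097 CPM of macrophage markers against 1368, 1917, 1322 and 1447 in cluster 10. Of the 10 leading genes of cluster 10 by fold, 2 were microglial markers (*Sparc* and *Sall1*), while those of cluster 8 (first *Fam167b*, *Crybb1* and *Cd81*) included none, and the median depth of its cells was 33.2% to 55.9% of that of their library. Cluster 8 is therefore called by its number. Neutrophil markers summed to 3492 to 9923 CPM in cluster 8, 1178 to 5841 in cluster 10, 1923 to 5413 in cluster 1 and 5527 to 16241 in cluster 5.

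The promoters of 4 members on which the results turn are shown, as the 250 bases before the transcription start that RefSeq lists for GRCm38.p6. Of the 10 members, 7 had an entry. *Trem2* and *Cst7* were the members 2-fold or more higher in clusters 8 and 10 than in clusters 1 and 5 in all libraries, *Apoe* rose with time in all 4 clusters described, and *Spp1* was higher in middle-aged mice in all of them. They lie at chr17:48346151-48346400 (plus strand), chr2:150570165-150570414 (plus), chr7:19699189-19699438 (minus) and chr5:104434861-104435110 (plus), outside the exons of these genes, and are written 5′ to 3′ on the strand of the gene. Capitals mark matches, on either strand, to 4 short motifs: the E-box CACGTG, the ETS core GGAAGT, the AP-1 site TGANTCA and the TATA motif TATAAA.
Trem2: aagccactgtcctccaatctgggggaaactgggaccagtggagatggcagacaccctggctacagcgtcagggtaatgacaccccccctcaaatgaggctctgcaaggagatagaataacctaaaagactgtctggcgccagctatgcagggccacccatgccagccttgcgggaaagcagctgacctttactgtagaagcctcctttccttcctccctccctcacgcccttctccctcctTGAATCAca
Cst7: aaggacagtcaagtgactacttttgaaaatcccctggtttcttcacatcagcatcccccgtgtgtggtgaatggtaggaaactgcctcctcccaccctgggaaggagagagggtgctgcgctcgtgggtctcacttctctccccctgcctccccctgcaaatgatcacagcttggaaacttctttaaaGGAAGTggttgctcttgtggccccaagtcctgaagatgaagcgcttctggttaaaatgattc
Apoe: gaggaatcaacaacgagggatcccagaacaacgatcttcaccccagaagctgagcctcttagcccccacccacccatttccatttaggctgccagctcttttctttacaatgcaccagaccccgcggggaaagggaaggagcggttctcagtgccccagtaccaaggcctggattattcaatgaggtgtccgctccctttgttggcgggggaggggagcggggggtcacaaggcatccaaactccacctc
Spp1: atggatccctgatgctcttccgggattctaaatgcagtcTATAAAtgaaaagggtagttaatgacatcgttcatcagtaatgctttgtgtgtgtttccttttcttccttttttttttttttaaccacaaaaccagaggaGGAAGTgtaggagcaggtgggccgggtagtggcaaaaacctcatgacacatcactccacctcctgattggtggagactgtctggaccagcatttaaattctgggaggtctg
The AP-1 letters were found before *Trem2* and *Itgax*, in 2 of 7 members, and in 6.75% of all 32851 listed promoters. The ETS core stood before *Cst7*, *Itgax* and *Spp1* (3 of 7, against 19.7% of all) and the TATA motif before *Spp1* and another listed start of *Apoe* (2 of 7, against 12.4%). The E-box was found in none of the 7 and in 6.02% of all. A member counted if any of its listed starts had the motif, while the percentages are of single promoters, so the units differ. The other genes, also protein coding, lie on chromosomes 6 (*Gpnmb*), 3 (*Fabp5*), 7 (*Tyrobp* and *Itgax*), 8 (*Lpl*) and 14 (*Lgals3*).

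Across the 16 clusters the members did not share 1 pattern. *Trem2* was highest in cluster 10, at a mean of 768 ± 223 CPM (SD, n = 4 libraries), followed by cluster 8 at 651 ± 178, cluster 1 at 253 ± 217 and cluster 5 at 108 ± 68.6. The libraries of neighbours in this order overlapped (494 to 987 in cluster 10, 407 to 799 in cluster 8 and 57.6 to 472 in cluster 1). *Cst7* was high in cluster 8 (232 ± 76.0), cluster 10 (180.1 ± 111) and cluster 9 (174 ± 33.2), with overlapping libraries, and stood at 11.3 ± 3.55 in cluster 1. *Lgals3* and *Apoe* had their highest mean in cluster 1, at 2746 ± 570.4 and 10684 ± 9999 CPM. *Spp1*, *Gpnmb* and *Lpl* also had their highest mean in cluster 1, at 595 ± 372, 165 ± 176 and 42.7 ± 8.56 CPM. For each gene with its highest mean in cluster 1, the libraries overlapped those of the next cluster. For *Apoe* and *Spp1* this was cluster 8, at 9547 ± 10278 and 438 ± 313 CPM. *Tyrobp* was broad, and highest in cluster 3 (4962 ± 477) and cluster 0 (4715 ± 262). *Fabp5* and *Itgax* peaked in cluster 7, at 696 ± 285 and 60.8 ± 15.8 CPM, where *Itgax* ranged from 39.3 to 76.1 and cluster 9 from 37.0 to 74.02.

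**Figure D1:**
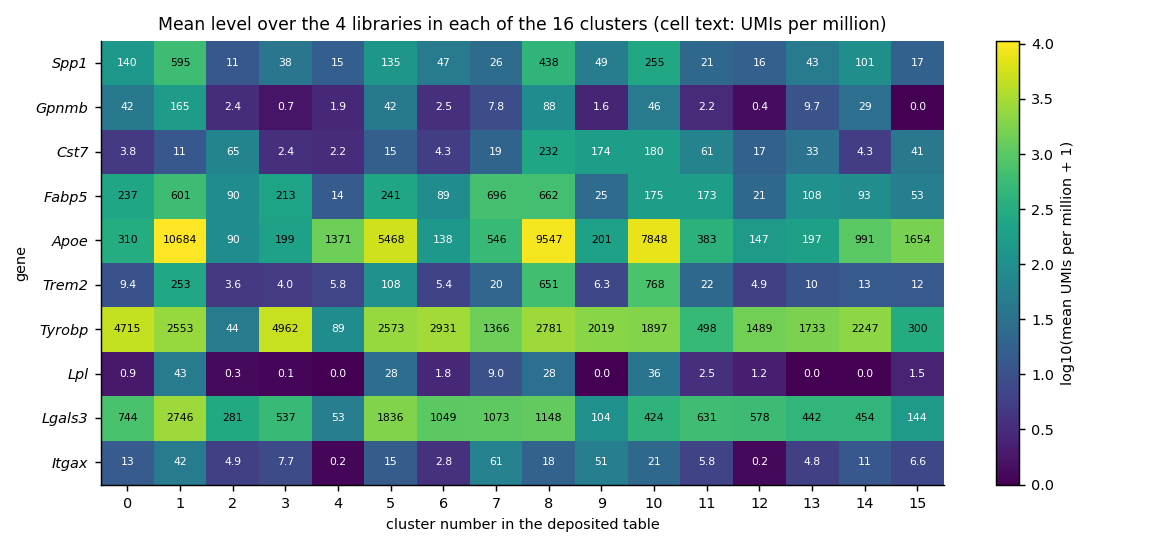
Mean level of each gene (rows) in each of the 16 deposited clusters (columns), as CPM averaged over 4 libraries. The color is the log10 of the mean plus 1. *Trem2* peaks in clusters 10 and 8, *Cst7* in clusters 8, 10 and 9, and *Lgals3* in cluster 1.

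Clusters 8 and 10 together were set against clusters 1 and 5 together within each library. The clusters were made from the expression of the same cells, so these ratios are a description without a test. *Cst7* and *Trem2* were at least 2-fold higher in clusters 8 and 10 of all 4 libraries, *Lgals3* was at least 2-fold lower in all 4, and no other member passed 2-fold in all. Of 11709 genes with 100 or more UMIs, 7.78% were 2-fold or more higher in all 4 libraries and 4.33% were lower. *Cst7* stood at 68.0, 159, 235 and 315 CPM in clusters 8 and 10 and at 6.08, 10.4, 15.1 and 15.7 in clusters 1 and 5. Its log2 ratios of 3.48, 3.92, 3.96 and 4.32 gave a mean of 3.92 ± 0.34 (SD, n = 4 libraries). The levels of *Cst7* in clusters 8 and 10 did not overlap those in clusters 1 and 5.

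*Trem2* stood at 678, 463, 848 and 905 CPM in clusters 8 and 10 and at 54.5, 71.4, 364 and 431 in clusters 1 and 5. Its log2 ratio was 3.64 and 2.70 on day 6 and 1.22 and 1.07 on day 10. For the adaptor *Tyrobp* the ratios were -0.68, -0.31, -0.05 and 0.09, all less than 2-fold. *Lgals3* reached 175, 502, 1127 and 1082 CPM in clusters 8 and 10 against 1896, 2862, 3072 and 2496 in clusters 1 and 5, a mean log2 ratio of -2.15 ± 1.03. It was lower in clusters 8 and 10 in each library.

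*Spp1*, *Gpnmb*, *Fabp5* and *Itgax* were lower in clusters 8 and 10 of all 4 libraries, with mean log2 ratios of -0.63 ± 0.18, -1.52 ± 1.01, -1.18 ± 1.16 and -0.99 ± 0.81. The lowest ratios were -2.99 for *Gpnmb* and -2.81 for *Fabp5*, in young mice on day 6. *Apoe* ratios of -1.50, -1.52, 0.17 and -0.23 lay below 0 on day 6 and near 0 on day 10. *Lpl* ratios of 0.06, -0.87, -1.07 and 0.33 went both ways at the same day and at the same age. The choice of the reference mattered for several members: *Spp1* in cluster 10 was lower than in cluster 1 in every library (log2 ratio -1.31 to -0.88) and higher than in cluster 5 in every library (0.50 to 1.29). With cluster 1 alone as the reference, or cluster 8 alone against clusters 1 and 5, *Cst7* remained the 1 member that was 2-fold higher in all 4 libraries. With cluster 5 alone as the reference, no member was 2-fold lower in all 4. The median over all genes of the mean log2 ratio was 0.33.

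Of 24 other genes of the same response, 23 were in the single-cell table, and *Clec7a* was not analysed in the single cells. In clusters 8 and 10 of all 4 libraries 5 of the 23 were 2-fold or more higher than in clusters 1 and 5, and 2 were lower. *Ch25h* (cholesterol 25-hydroxylase) and *Timp2* (a metalloproteinase inhibitor) stood at mean log2 ratios of 3.13 ± 0.85 and 3.02 ± 0.40, and the others were *Cd63*, *Ctsl* and *Ctsd*, of lysosomes. *Lyz2* (lysozyme) and the chemokine *Ccl6* were lower, at -2.49 ± 1.20 and -1.94 ± 0.64.

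**Figure D2:**
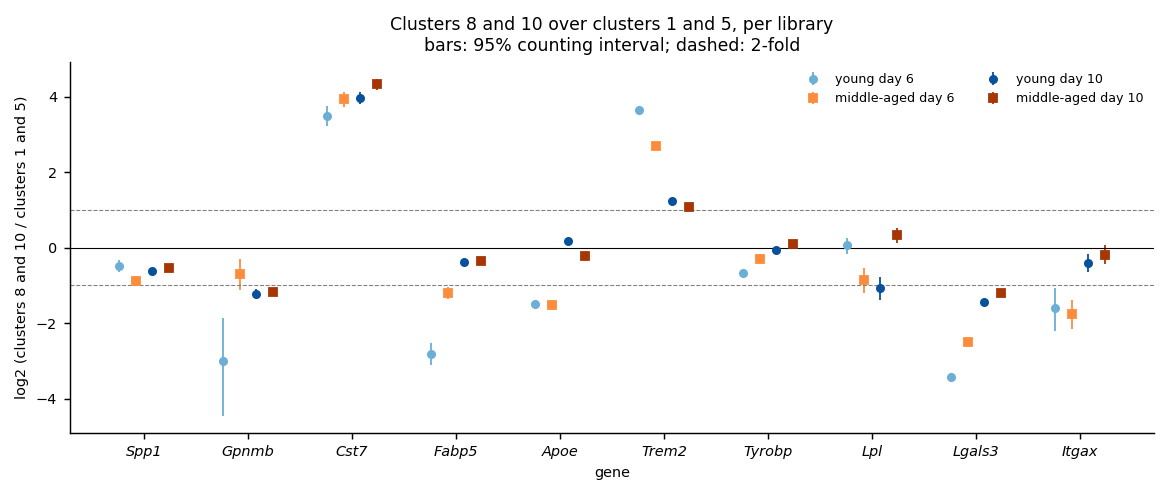
Log2 ratio of the level of each gene in clusters 8 and 10 to that in clusters 1 and 5, 1 point per library, with 95% intervals for counting error only; dashed lines mark 2-fold. *Cst7* and *Trem2* lie above the upper line and *Lgals3* below the lower line in all 4 libraries, and the points of *Trem2* are lower on day 10 than on day 6.

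The change from day 6 to day 10 was tested in each cluster on UMIs added up by library, with edgeR's quasi-likelihood test for day and age together, Benjamini-Hochberg adjusted over all genes. The 4 libraries left 1 residual degree of freedom. As no age and day was repeated, it held only the departure from added day and age effects. The spread of each gene came mostly from the trend over all genes, weighted as 11.9 to 18.8 degrees of freedom against this 1. The p-values thus do not measure the spread between like libraries or mice, and the spread used may be technical. In cluster 10, 7 of 10 members rose and none fell, against 3.18% of 10562 genes that rose and 3.46% that fell. In cluster 8, 9 of 10 members rose and none fell, against 6.50% and 6.90% of 8371 genes. In cluster 1, 5 rose and 1 fell, against 14.7% and 15.2% of 12222 genes. In cluster 5, 5 rose and 1 fell, against 10.2% and 15.3% of 10379 genes. The median log2 change of the members was 1.35 in cluster 10, 1.64 in cluster 8, 0.75 in cluster 1 and 0.67 in cluster 5, and that of all genes lay between -0.01 and 0.05.

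Normalization by trimmed means (TMM) moved day changes by 0.15 in cluster 10, 0.28 in cluster 8, -0.17 in cluster 1 and -0.29 in cluster 5 against scaling by total UMIs. With total UMIs, 7, 7, 6 and 7 members were called in clusters 10, 8, 1 and 5, and the share of all calls that were higher went from 47.9% to 27.9%, from 48.5% to 20.8%, from 49.3% to 65.2% and from 39.98% to 73.1%. The levels given below are CPM of total UMIs, and the fold changes are those of the test.

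**Figure D3:**
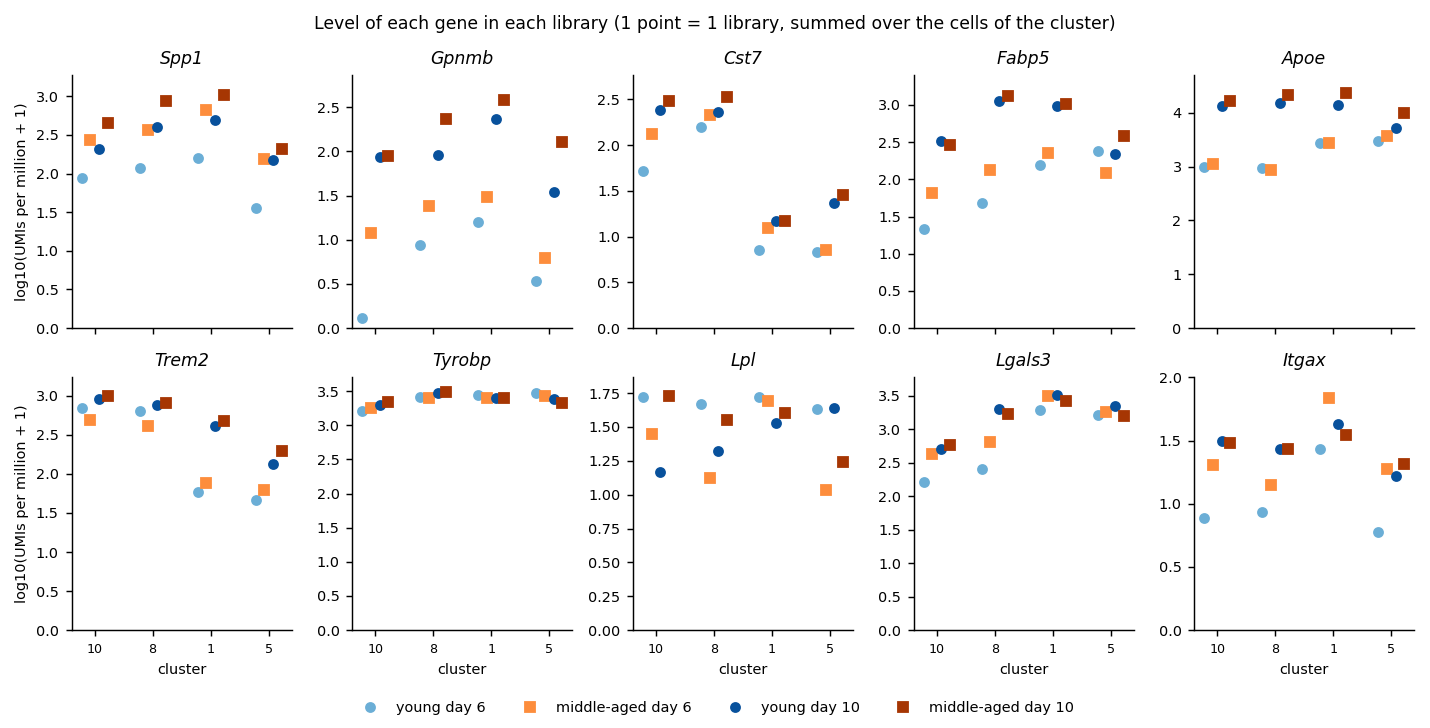
Level of each gene as log10(CPM + 1) in clusters 10, 8, 1 and 5, 1 point per library (circles, young; squares, middle-aged; light, day 6; dark, day 10). *Apoe*, *Gpnmb* and *Fabp5* separate the days in cluster 10 and cluster 8, and *Trem2* separates them most in cluster 1.

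Among the lipid genes *Apoe* changed most. In cluster 10 it stood at 991, 1104, 13121 and 16178 CPM, in cluster 8 at 938, 872, 15173 and 21203, in cluster 1 at 2742, 2724, 13784 and 23486 and in cluster 5 at 2919, 3718, 5151 and 10084. Both libraries of day 10 were above both of day 6 in every one of the 4 clusters. The log2 rise was 3.95 ± 0.49 (SE) in cluster 10 (edgeR adjusted p = 0.000919), 4.59 ± 0.13 in cluster 8 (1.81e-15), 2.55 ± 0.22 in cluster 1 (3.9e-06) and 0.84 ± 0.13 in cluster 5 (0.00024). After each cell was thinned to 1000 UMIs, cells with an *Apoe* UMI went from 19.8% and 27.4% to 93.9% and 90.4% in cluster 10, and from 67.6% and 68.4% to 89.5% and 94.4% in cluster 1. The same share in cluster 2, called T cells from its summed T cell markers of 2945 to 3428 CPM, which should lack the gene, was 1.54%, 2.21%, 11.1% and 17.2%, and in cluster 4, called B cells from its 4349.8 to 8165 CPM of B cell markers, 26.5%, 35.3%, 49.4% and 58.3%. *Apoe* shares in the B cells were thus above those of cluster 10 on day 6, and only the shares of day 10 in cluster 10 stood clear of both lymphocyte clusters.

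*Fabp5* rose in cluster 10 from 20.7 and 65.1 CPM to 324 and 289.6 (log2 3.17 ± 0.36, edgeR adjusted p = 0.000698). It rose in cluster 8 from 47.6 and 132 to 1129.6 and 1338 (4.13 ± 0.24, edgeR adjusted p = 2.8e-10) and in cluster 1 by 2.27 ± 0.23 (edgeR adjusted p = 1.02e-05). In cluster 5 its values of 238, 119, 220.0 and 387 overlapped between the days, and the change of 0.50 ± 0.29 did not pass the test. At 1000 UMIs, 1.42%, 2.79%, 10.2% and 14.5% of cluster 10 cells had a *Fabp5* UMI, against 3.93%, 6.01%, 6.94% and 5.62% of T cells. On day 6 cluster 10 was thus below the T cell share. B cells stood at 1.02%, 1.63%, 1.67% and 1.18%, below cluster 10 in each library, with overlapping counting intervals on day 6. *Lpl* was the member without a rise in any cluster. Its 51.8, 27.3, 13.7 and 52.9 CPM in cluster 10 and 46.1, 12.3, 20.0 and 34.4 in cluster 8 were lower on day 10 in young mice and higher on day 10 in middle-aged mice, on 178, 65, 48 and 171 and 30, 16, 50 and 86 UMIs. In cluster 1 it fell by 0.65 on the log2 scale (SE 0.18, edgeR adjusted p = 0.0172), from 51.4 and 48.0 to 32.6 and 39.0 CPM. This call was lost with total UMIs (edgeR adjusted p = 0.0749), with DESeq2 (0.0521) and with cells chosen by microglial markers (0.0554).

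The log2 rise of the receptor was largest in cluster 1. *Trem2* stood at 57.6, 74.3, 408 and 472 CPM in cluster 1 and 45.6, 60.3, 133 and 193 in cluster 5, and at 687, 494, 906 and 987 in cluster 10 and 631, 407, 768 and 799 in cluster 8. Its log2 rise was 2.58 ± 0.21 in cluster 1 (edgeR adjusted p = 2.82e-06) and 1.32 ± 0.17 in cluster 5 (4.32e-05), against 0.91 ± 0.18 in cluster 8 (0.00135) and 0.85 ± 0.28 in cluster 10, which missed the threshold (0.0966). The call of cluster 8 was lost with total UMIs (0.63, edgeR adjusted p = 0.0569) and with DESeq2 (adjusted p = 0.0658). In cluster 1 cells with a *Trem2* UMI at 1000 UMIs went from 4.88% and 6.81% to 30.8% and 32.6%. T cells went from 0.154% and 0.265% to 0.522% and 0.692%, and B cells stood at 0%, 1.09%, 0.556% and 1.18%. Cells of cluster 1 with a UMI of a microglial marker also became more frequent, from 14.1% and 17.5% to 36.2% and 34.2%. The adaptor *Tyrobp* stood at 1601, 1787, 1987 and 2213 CPM in cluster 10 and 2755, 2482, 2487 and 2489 in cluster 1. It rose by 0.53 ± 0.12 in cluster 8 (edgeR adjusted p = 0.00602) and fell by 0.60 in cluster 5 (0.00168), and missed the threshold in both with total UMIs (edgeR adjusted p = 0.213 and 0.0616).

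Of the lysosomal and sugar-binding genes, *Gpnmb* rose in all 4 clusters. It stood at 0.291, 10.9, 84.5 and 88.1 CPM in cluster 10, 7.68, 23.1, 89.4 and 234 in cluster 8, 14.9, 29.6, 233 and 383 in cluster 1 and 2.43, 5.17, 33.3 and 126 in cluster 5. Log2 rises were 4.37 ± 0.51 (edgeR adjusted p = 0.00074), 3.65 ± 0.27 (9.21e-09), 3.66 ± 0.22 (3.59e-07) and 3.98 ± 0.25 (3.34e-08) in that order of clusters. The value of cluster 10 started from 1 and 26 UMIs on day 6, all in 10 or fewer cells, and DESeq2 did not call it (adjusted p = 0.128). On day 10 the 10 cells with the most *Gpnmb* UMIs still held 79.8 and 58.9% of those of cluster 10, against 9.68 and 6.97% in cluster 1.

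*Cst7* stood at 51.5, 129.7, 241 and 298 CPM in cluster 10 and 155, 211, 226 and 337 in cluster 8, and rose by 1.85 ± 0.27 (edgeR adjusted p = 0.00206) and 0.89 ± 0.19 (0.0024). It also rose in cluster 5, from a level below 10 CPM, by 1.76 ± 0.23 (4.29e-05). There 0.367%, 0.938%, 1.22% and 2.91% of cells had a *Cst7* UMI at 1000 UMIs, the summed T cell markers went from 189 and 273 to 631 and 902 CPM, and *Cst7* could not be tested without cells of other lineages. In cluster 1 its change of 0.51 ± 0.24 missed the threshold (0.12). At 1000 UMIs, 3.54%, 7.91%, 20.2% and 26.5% of cluster 10 cells had a *Cst7* UMI, against 0.340%, 0%, 0% and 0.592% of B cells and 3.46%, 4.24%, 7.46% and 7.82% of T cells. On day 6 in young mice cluster 10 was thus at the T cell share. *Lgals3* rose from 160.0 and 427 to 517 and 590.4 CPM in cluster 10 (1.23 ± 0.31, edgeR adjusted p = 0.0342) and from 253 and 639 to 1984 and 1717 in cluster 8 (2.45 ± 0.25, edgeR adjusted p = 6.63e-07). At 1000 UMIs, 6.13%, 12.1%, 20.5% and 22.0% of cluster 10 cells had an *Lgals3* UMI, against 15.5%, 15.4%, 22.5% and 18.1% of T cells. Cluster 10 was thus below the T cell share except in middle-aged mice on day 10. In cluster 1 the 1979, 3128, 3229 and 2649 CPM gave 0.07 ± 0.25 and in cluster 5 the change was -0.17 ± 0.15, neither past the threshold.

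*Spp1* rose in all 4 clusters, by 1.16 ± 0.24 in cluster 10 (edgeR adjusted p = 0.0126), 1.77 ± 0.19 in cluster 8 (1.86e-06), 0.99 ± 0.26 in cluster 1 (0.0124) and 0.94 ± 0.28 in cluster 5 (0.0237). Without cells holding other lineages' markers the calls were lost in clusters 10, 1 and 5 (log2 0.82, 0.81 and 0.44, edgeR adjusted p = 0.0575, 0.0586 and 0.55), and likewise with day alone in the model (0.29, 0.482 and 0.475). In cluster 8 the call held. Middle-aged mice on day 6 were above young mice on day 10 in clusters 10, 1 and 5. Much of its signal came from few cells, with 67.6, 87.0, 62.8 and 53.5% of the *Spp1* UMIs of cluster 10 in 10 cells, against 27.3, 18.9, 16.8 and 17.1% in cluster 1. *Itgax* rose from 6.69 and 19.3 to 30.2 and 29.4 CPM in cluster 10 (1.47 ± 0.33, edgeR adjusted p = 0.0208) and by 1.52 ± 0.35 in cluster 8 (0.00546), where day 6 rested on 5 and 17 UMIs. In cluster 1 its 26.3, 68.1, 41.7 and 33.7 CPM crossed, higher with time in young and lower in middle-aged mice, and the change of -0.35 ± 0.32 missed the threshold (0.435).

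Several members were often found in the same cell. At 1000 UMIs the mean number of the 10 genes with a UMI was 1.66, 1.85, 3 and 3.27 in cells of cluster 10, 1.85, 1.97, 3.64 and 3.86 in cluster 8, 2.63, 2.85, 3.57 and 3.78 in cluster 1 and 2.72, 2.67, 2.83 and 3 in cluster 5. Cells with 4 or more of them made up 4.25, 5.58, 28.5 and 36.7% of cluster 10, 4.64, 8.16, 52.9 and 57.2% of cluster 8, 12.8, 21.9, 47.5 and 52.2% of cluster 1 and 14.0, 12.5, 18.6 and 24.7% of cluster 5. Both day 10 libraries were above both day 6 libraries in each of these clusters. T cells held 0.307, 0.329, 0.558 and 0.548 of the genes and B cells 0.384, 0.505, 0.663 and 0.749. Thinning left out 1 to 8 cells of a library in cluster 10 and 33 to 72 in cluster 8.

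The marker genes of the cells themselves moved with the day in cluster 8. At 1000 UMIs the share of cluster 8 cells with a microglial marker went from 93.8% and 84.9% to 71.6% and 74.1%, and with a macrophage marker from 40.7% and 55.9% to 72.4% and 65.5%. In cluster 10 these shares were 99.3, 94.9, 96.1 and 98.2% and 30.9, 49.3, 47.4 and 44.3%. Counted only in cells with a UMI of a microglial marker, an alternative chosen after seeing the data, the same 9 members were called in cluster 8 and the same 7 in cluster 10. In cluster 5 the summed T cell markers went from 189 and 273 to 631 and 902 CPM. Without cells that held other lineages' markers, which kept 590, 280, 54 and 88 cells of cluster 5, *Trem2* was the 1 member called there, and 8 members could be tested. The part of such cells in the day changes of cluster 8 was not tested beyond these counts.

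Of the other 24 genes of the response, 7 of 22 tested rose in cluster 10, led by *Igf1* (log2 3.97), a growth factor, and *Ctsd* (1.96), and *Ch25h* fell by 1.35. In cluster 8, 14 of 22 rose, led by *Lyz2* (4.55) and *Atp6v0d2* (4.25), a proton pump subunit, and *Csf1* fell by 1.48. In cluster 1, 9 of 23 rose and 5 fell, from *Ctsd* (2.06) to *Ch25h* (-2.74). In cluster 5, 6 of 22 rose and 10 fell, from *Atp6v0d2* (1.89) to *Ch25h* (-2.20).

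**Figure D4:**
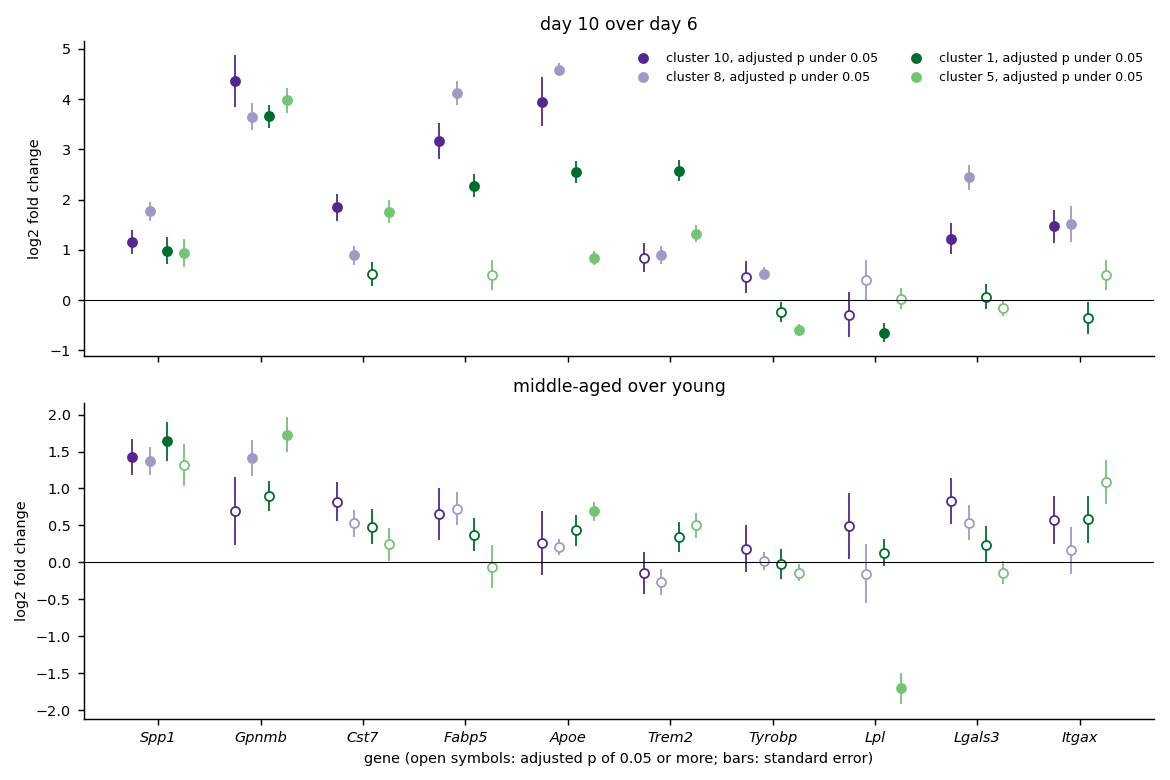
Log2 fold change with standard error of each gene in clusters 10, 8, 1 and 5, for day 10 over day 6 (upper panel) and middle-aged over young (lower panel). Filled points passed an adjusted p of 0.05 in edgeR's quasi-likelihood test. *Gpnmb* and *Apoe* are filled in all 4 clusters in the upper panel, and *Spp1* lies between 1.32 and 1.64 in the lower one.

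Whether the change with time differed between the clusters taken as microglia and as macrophages was tested on 8 sums, 2 per library. The day change was larger in clusters 8 and 10 for 6 members and larger in clusters 1 and 5 for 1, against 15.9% and 10.2% of 12900 genes. *Lgals3* differed by 2.16 ± 0.34 (log2, SE, edgeR adjusted p = 9.33e-09), *Fabp5* by 2.12 ± 0.28 (7.38e-12), *Apoe* by 2.001 ± 0.46 (0.000156), *Itgax* by 1.93 ± 0.25 (2.38e-12), *Tyrobp* by 1.03 ± 0.35 (0.0169) and *Cst7* by 0.95 ± 0.23 (0.000278). *Trem2* went the other way, by -1.50 ± 0.27 (5.26e-07). *Gpnmb*, *Spp1* and *Lpl* did not pass (0.0614, 0.067 and 0.0595). Here scaling counted: TMM moved every gene by 0.52 against total UMIs, with which 60.9% of calls being larger in clusters 8 and 10 became 15.4%. With total UMIs *Fabp5* (1.60), *Apoe* (1.48), *Lgals3* (1.65), *Itgax* (1.41) and *Trem2* (-2.02) were called, and *Cst7* (0.44) and *Tyrobp* (0.51) were not. Cluster 8 gave 15.9, 35.3, 41.6 and 43.6% of the UMIs of clusters 8 and 10, a share that also rose with time. Between cluster 10 and cluster 1 alone, *Cst7*, *Apoe*, *Trem2*, *Lgals3* and *Itgax* were called. The main fit of 8 sums took the spread of each gene wholly from the trend over all genes. Of the other genes of the response, with TMM, 12 of 23 had a larger change in clusters 8 and 10, up to *Cd83* (2.91), and none the reverse. This count was not taken with total UMIs.

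Of the differences with age, that of *Spp1* was called in 3 of the 4 clusters. It was higher in middle-aged than in young mice in each cluster on each day, in 8 of 8 ratios, by log2 0.49 to 2.12. These ratios are 4 clusters read in the same 2 pairs of libraries and not separate comparisons. Every counting interval lay above 0, but these intervals take UMIs as independent and leave out the spread between cells. Much of the *Spp1* signal of cluster 10 came from few cells, as given above. In cluster 10 *Spp1* stood at 85.2, 271, 208 and 455 CPM, and in cluster 8 at 115, 368, 402 and 866. In cluster 1 it stood at 157, 672, 498 and 1051 and in cluster 5 at 34.9, 151, 147 and 206. The difference over both days was 1.42 ± 0.24 in cluster 10 (edgeR adjusted p = 0.0463), 1.37 ± 0.19 in cluster 8 (0.00101), 1.64 ± 0.27 in cluster 1 (0.0345) and 1.32 ± 0.28 in cluster 5, where it missed the threshold (0.0511). Cells with an *Spp1* UMI at 1000 UMIs made up 3.54%, 7.91%, 8.03% and 14.2% of cluster 10 and 5.72%, 16.1%, 14.7% and 23.0% of cluster 1, against 0.231%, 0.618%, 1.20% and 1.059% of T cells.

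In cluster 10 this 1 member was higher in middle-aged mice, against 0.0663% of all genes. In cluster 8, 2 members were higher, against 0.0597%, the second being *Gpnmb* (1.41 ± 0.24, edgeR adjusted p = 0.0143). In cluster 1, 1 was higher, against 0.0491%. In cluster 5, 2 were higher and 1 lower, against 0.434% and 0.222%: *Gpnmb* (1.72 ± 0.24, edgeR adjusted p = 0.00211), *Apoe* (0.69 ± 0.13, 0.0302) and, lower, *Lpl* (-1.70 ± 0.21, 0.00109). *Lpl* in cluster 5 stood at 41.8, 9.90, 42.8 and 16.4 CPM, and the libraries of the 2 ages did not overlap. *Gpnmb* was higher in middle-aged mice in 8 of these 8 ratios and *Cst7* in 8 of 8, with intervals above 0 in 7 and 5. For *Cst7* in cluster 1 on day 10 both ages stood at 13.7 CPM (log2 0.000568), which is no difference. The share of all genes with such counts of ratios, also for that of *Spp1*, was not taken. *Trem2* was higher in 6 of 8, and lower by 0.48 and 0.63 on day 6 in clusters 10 and 8. *Lgals3* was higher in middle-aged mice of day 6 in all 4 clusters and lower on day 10 in 3 of them. None of these 7 age calls held in every alternative, and with day left out of the model none passed. No difference in the age effect between the 2 kinds of clusters was called for any member (edgeR adjusted p of 0.449 or more, 2 members with an unadjusted p under 0.05, against 33 of 12900 genes called, 592 with an unadjusted p under 0.05, and 0 members by DESeq2). Over the other genes of the response, *Ctsd* (0.77) and *Cd63* (0.87) were higher in cluster 5, of 22 tested, and none was called in clusters 10, 8 and 1.

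Cluster 8 held more of some members than cluster 10. *Fabp5* was higher in cluster 8 in each library, by log2 1.20, 1.02, 1.80 and 2.21, as was *Lgals3*, by 0.66, 0.58, 1.94 and 1.54. *Spp1* (0.43, 0.44, 0.95 and 0.93) and *Tyrobp* (0.69, 0.48, 0.58 and 0.48) were also higher in 4 of 4. *Trem2* was lower in 4 of 4, by small amounts (-0.12, -0.28, -0.24 and -0.30). *Apoe* differed in both directions (-0.08, -0.34, 0.21 and 0.39). These ratios between clusters of 1 clustering are descriptions, and the macrophage markers given above were also higher in cluster 8 on day 10.

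In bulk RNA of naive microglia, with levels as CPM of all counts, 5 of 10 members were 1.5-fold or more higher in the middle-aged library and none was lower. Of 14821 genes with 100 or more counts, 4.82% were that much higher and 9.59% lower. With 1 library per age this compares 2 libraries, the intervals cover counting error only, and fewer cells of a type cannot be told apart from less RNA per cell. *Spp1* had 393 counts in the young and 1230 in the middle-aged library (log2 1.70 [1.54 to 1.87], 3.26-fold). *Cst7* followed with 325 counts in the young and 725 in the middle-aged library, 1.21 [1.02 to 1.41]. *Fabp5* had 84 counts in the young and 159 in the middle-aged library, 0.98 [0.59 to 1.38]. *Itgax* had 2096 counts in the young and 3621 in the middle-aged library, 0.85 [0.77 to 0.92]. *Lgals3* had 229 counts in the young and 362 in the middle-aged library, 0.72 [0.48 to 0.96].

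The other members differed by less than 1.5-fold between the ages. *Apoe* had 78802 counts in the young and 71875 in the middle-aged library (log2 -0.08 [-0.09 to -0.06]), and *Trem2* had 72732 counts in the young and 69209 in the middle-aged library (-0.01 [-0.03 to 0.00]). *Tyrobp* had 32193 counts in the young and 33557 in the middle-aged library, a difference of 0.12 [0.09 to 0.14]. *Lpl* had 3910 counts in the young and 4068 in the middle-aged library, a difference of 0.11 [0.05 to 0.18]. *Gpnmb*, with 50 counts in the young and 42 in the middle-aged library (-0.19 [-0.82 to 0.43]), did not reach 100 counts in all, so 9 members passed that filter. Per kilobase of exon the members of naive young microglia ranked with *Tyrobp* first (608 CPM per kb), then *Apoe* (464) and *Trem2* (185), and *Fabp5* (0.297) and *Gpnmb* (0.0967) last. These first 3 genes were among those that differed by less than 1.5-fold.

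The bulk libraries carried microglial markers at 22053 and 20952 CPM in young and middle-aged mice. T cell and NK cell markers were near 0, at 0.328 and 0.551 and at 0.0630 and 0.0131 CPM, with 2 of 4 and 2 of 3 genes at 0. Sums of endothelial markers went from 366 to 116 CPM (6 of 6 genes lower), of border macrophage markers from 219 to 103 (5 of 5 lower) and of monocyte and macrophage markers from 289 to 98.9 (5 of 8 lower). Neutrophil markers were at 225 and 262 CPM. Their part in the differences of the members was not tested. Of the other 24 genes of the response, 23 reached 100 counts, 2 were higher, *Ch25h* (0.97) and *Cd83* (0.64), and *Igf1* was lower (-1.28).

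**Figure D5:**
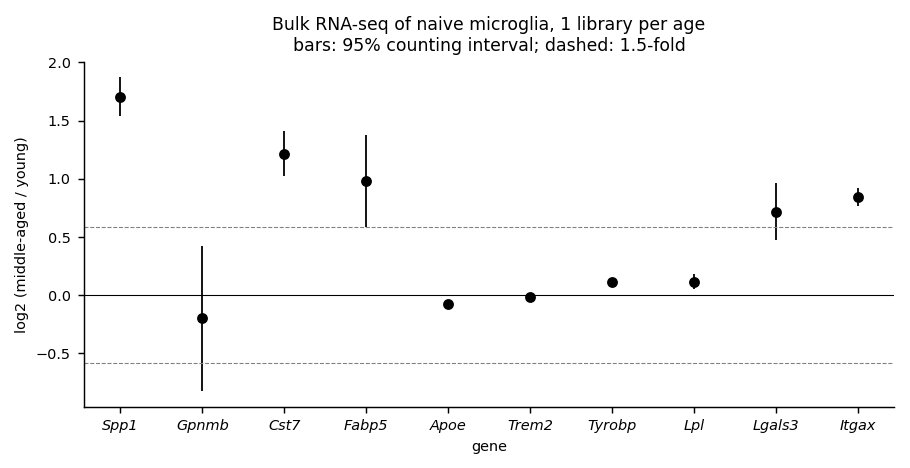
Log2 ratio of middle-aged to young CPM for each gene in bulk naive microglia, 1 library per age, with 95% intervals for counting error only; dashed lines mark 1.5-fold. *Spp1*, *Cst7*, *Fabp5*, *Lgals3* and *Itgax* lie above the upper line, and *Apoe*, *Trem2*, *Tyrobp* and *Lpl* lie between 0.12 and -0.08.

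Over the 64 sums of 16 clusters in 4 libraries, the genes most like *Trem2* by Pearson correlation of log2(CPM + 10) were *C1qc* (0.97), *Itgb5* (0.96) and *Rnase4* (0.96), and those most like *Tyrobp* were *Fcer1g* (0.97), *Itgam* (0.92) and *Gng12* (0.89). *Spp1* was most like *Ctsb* (0.81), *Gpnmb* like *F7* (0.85), *Apoe* like *Blvrb* (0.85), *Lgals3* like *Pgam1* (0.87), *Lpl* like *Tbxas1* (0.89), *Fabp5* like *Atox1* (0.77) and *Itgax* like *Olfm1* (0.79). Among the members the closest pair was *Trem2* and *Lpl* (0.82), and *Cst7* and *Lgals3* were the least alike (-0.12). Over the 16 sums of clusters 10, 8, 1 and 5 alone the closest pair was *Fabp5* and *Apoe* (0.89), *Trem2* and *Lpl* stood at -0.05, and *Cst7* and *Lgals3* at -0.54. The sums share libraries and clusters, so these values describe likeness and carry no p.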

How the data were processed

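Single-cell libraries of sorted CD45+ spinal cord cells and bulk libraries of naive microglia were read from the deposited tables. The deposited single-cell values were UMI counts per gene and cell, which the authors made with Cell Ranger 3.1.0 on mm10, filtered by genes, reads and mitochondrial share per cell, integrated across libraries and clustered. The deposited bulk values were raw counts per gene that the authors obtained by alignment and featureCounts without regard to strand. Both tables hold whole numbers, and no sample column was left unused. The cluster number and library of each cell were taken from the deposited annotation, and groups from the labels. Doublets were not called here, and how they were treated before deposit is not given in the sources used here.

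For each library the UMIs of a cluster were summed, since cells of 1 library are not replicates, and levels are CPM of that sum. Day and age effects were fitted with edgeR 4.0.16 (quasi-likelihood, TMM, day and age as terms, 10 or more UMIs in 2 or more libraries) in R 4.3.3, with Benjamini-Hochberg adjustment over all genes tested and a threshold of 0.05. Ratios between clusters and between the bulk libraries carry exact 95% conditional binomial intervals, which cover counting error only, and genes needed 100 UMIs or counts. Shares of cells were taken after each cell was thinned to 1000 UMIs. Python 3.11.15, numpy 2.4.6, scipy 1.17.1, pandas 2.3.3 and matplotlib 3.10.9 were used, and the test was checked on simulated counts. DESeq2 1.42.0 and other scalings, filters and cell choices were alternatives.

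All 10 members are named with their values, the 24 other genes of the response by counts with up to 4 values, and for each member the genes most like it among those with 1000 or more UMIs. Some results of this kind are not reported here. The members and lists were chosen with earlier results of these data known. Motif searches used both strands of RefSeq promoter sequences of GRCm38.p6.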

Additional observations from a re-analysis of the deposited data

Results flagged for a closer look

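The change from day 6 to day 10 differed between clusters 8 and 10 and clusters 1 and 5, by edgeR's test of the difference itself, for 7 members. Of all 12900 genes, 15.9% were called with a larger change in clusters 8 and 10 and 10.2% with a larger change in clusters 1 and 5. TMM moved every gene by 0.52 here against total UMIs. The spread of each gene came wholly from the trend over all genes. On the log2 scale the difference was 2.16 for *Lgals3*, 2.12 for *Fabp5*, 2.001 for *Apoe*, 1.93 for *Itgax*, 1.03 for *Tyrobp*, 0.95 for *Cst7* and -1.50 for *Trem2*. The calls of *Cst7* and *Tyrobp* were lost with scaling by total UMIs, and those of *Fabp5* (0.92, edgeR adjusted p = 0.0582) and *Tyrobp* (0.72, edgeR adjusted p = 0.0788) for cluster 10 against cluster 1.

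In other cases the libraries moved in opposite directions. These differences were not tested, since each age and day had 1 library, and they are log2 ratios of 2 libraries.

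The change with time of *Lpl* was -1.92 in young and 0.95 in middle-aged mice in cluster 10, and -1.21 and 1.48 in cluster 8. In cluster 1 *Lgals3* changed by 0.71 in young and -0.24 in middle-aged mice, and *Itgax* by 0.66 and -1.02. In cluster 5 *Lgals3* changed by 0.44 and -0.19.

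The difference of middle-aged from young mice was 1.65 on day 6 and -0.16 on day 10 for *Fabp5* in cluster 10, and -0.99 and 0.81 in cluster 5. For *Trem2* in cluster 10 it was -0.48 on day 6 and 0.12 on day 10. *Lpl* differed by -0.92 and 1.95 in cluster 10 and by -1.91 and 0.79 in cluster 8. *Lgals3* differed by 1.33 and -0.21 in cluster 8, by 0.66 and -0.29 in cluster 1 and by 0.14 and -0.49 in cluster 5. *Itgax* in cluster 1 differed by 1.37 and -0.31.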

How the results depend on the processing

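No paired analysis was possible because each age and day had 1 library, so no groups shared 2 replicate numbers; the fit with day and age together compares the ages within each day, and the fit with 1 of these terms is the alternative. With 1 library left out the day and age effects had no residual degrees of freedom. What remained was the ratio of the other pair of libraries, in CPM of total UMIs and without a test. Omitting either library of a pair left the same ratio, so each ratio entered the counts 2 times. The direction of the called members was kept in 112 of 112 day values and 28 of 28 age values. Of these, 80 and 22 moved by more than 1 standard error from the TMM estimate, a distance that includes the change of scaling. The calls came from the same pairs, so these counts are no separate check. Over these omissions 2 to 2 members were 2-fold higher in clusters 8 and 10 and 1 to 2 lower, *Gpnmb* joining *Lgals3* without middle-aged mice of day 6. Against the 2 members higher and 1 lower, 1 was higher with cluster 8 alone or against cluster 1 alone, and 0 were lower with clusters weighted equally, with cluster 8 alone or against cluster 5 alone, 3 with cluster 10 alone and 2 at 1.5-fold. In bulk 2 members passed 2-fold. Of the day calls, 4 of 7 remained in cluster 10 with day alone in the model, 5 of 9 in cluster 8 with DESeq2, and 1 of 6 in cluster 5 without cells holding other lineages' markers. Under every alternative 3 of 7 day calls held in cluster 10, 5 of 9 in cluster 8, 4 of 6 in cluster 1, 1 of 6 in cluster 5 (*Trem2*), and 4 of 7 differences by class. In cluster 5 *Cst7* and *Gpnmb* held under the other 8 alternatives and could not be tested without other lineages' cells.

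Age calls were less stable, and 0 of 7 held under every alternative. In cluster 10 the 1 call went to 0 with 2000 or more UMIs per cell, without mitochondrial and ribosomal protein genes, with age alone in the model and with cells chosen by microglial markers. In cluster 8 the 2 calls went to 0 with 2000 or more UMIs, DESeq2, age alone and total UMIs. In cluster 1 the 1 call went to 0 with RLE size factors, no filter, other lineages left out, 2000 or more UMIs, mitochondrial and ribosomal genes left out, age alone and cells chosen by markers. In cluster 5 the 3 calls became 5 with RLE and with no filter, and 0 with age alone and with cells chosen by markers.

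Values that changed sign were never called. Without other lineages' cells they were -0.0227 for *Tyrobp* by age in cluster 8, -0.12 for *Lgals3* by day in cluster 1, -0.0254 for *Fabp5* and 0.10 for *Lgals3* by day in cluster 5, and -0.35 for *Itgax* by age in cluster 5. *Lpl* by day in cluster 5 was -0.0167 with no filter, -0.0946 with day alone and -0.0199 with cells chosen by markers, and by age in cluster 8 it was 0.0450 with cells chosen by markers. *Lgals3* by day in cluster 5 was 0.13 with total UMIs, *Fabp5* by age in cluster 5 was 0.0905 with age alone, and *Gpnmb* by age between the classes was -0.0528 for cluster 10 against cluster 1. The choice of cells by markers, total UMIs and cluster 10 against cluster 1 were added after seeing the data. The cause of these changes was not tested.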
